A study of Gallus gallus with 12 samples.

Results

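DNA replication genes were read in embryonic chicken hearts on 12 Affymetrix arrays. The set is a list of 43 genes that copy DNA or make its building blocks, each read by the probe set under its symbol with the highest mean signal. A probe set was found for 38 of them, and all 38 passed the filter on dim probe sets, of 10276 genes with 1 symbol that were tested in all. CDC6, MCM4, GINS2, POLD1 and RNASEH2A had no probe set under their symbols in the gene table used and were not analysed here. The hearts came from 3 breeds, Tibetan Chicken, Shouguang Chicken and Dwarf Recessive White Chicken (DRW), whose eggs, full siblings per the design text, were incubated in hypoxia or in normoxia. Each of the 6 groups had 2 arrays: Tibetan hypoxia and normoxia, Shouguang hypoxia and normoxia, and DRW hypoxia and normoxia. The sources used here do not give the oxygen level, the age or sex of the embryos, or how many hearts an array holds. Nor do they say that the 2 arrays of a group came from separate embryos, so a p-value reflects only how far these arrays spread, and that spread may be technical.

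Each origin of replication is first marked by the origin recognition complex (ORC1 to ORC6), on which CDT1 helps to load the ring-shaped MCM helicase, a step called licensing that geminin blocks. In S phase CDC45 and the GINS complex join the MCM ring to form the active helicase, primase and polymerases alpha, delta and epsilon make the new strands, and the clamp PCNA, placed by the RFC clamp loader, holds the polymerases on DNA. Most of these genes are transcribed around the start of S phase, and in an embryonic heart, where muscle cells still divide, their transcripts are a common readout of cell division. In whole hearts, fewer dividing cells and less RNA per cell cannot be told apart.

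The tissue label was checked on heart muscle genes: all 20 cardiomyocyte markers with a probe set were above the dim limit, a signal of 79.5, on all 12 arrays. Array medians were 134 to 155, and replicate arrays had a Pearson r of 0.949 to 0.960 across probe sets. DRW normoxia replicate 1 stood apart in genes of the W chromosome, which hens carry and cocks lack: the mean log2 signal of 14 W-linked genes was 6.01 there, against 8.09 to 9.60 on the other 11 arrays. The W-linked level also followed the groups: it was 9.23 to 9.60 on the 4 Tibetan arrays, 8.09 and 8.25 in Shouguang hypoxia against 9.43 and 8.95 in Shouguang normoxia, and 9.49 and 8.15 in DRW hypoxia against 6.01 and 8.42 in DRW normoxia. None of the 37 members whose chromosome is known lay on Z or W. Signals below are log2 signals or differences of them, except the summed signals, which add linear signals over the genes of a list. The brightest probe sets weigh most in such a sum. Levels were otherwise compared only within a gene, because probe sets do not share a scale.

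Averaged over the 3 breeds, most replication genes sat slightly lower under hypoxia than under normoxia, and no single gene passed the test. In DRW hearts alone 21 of 38 members had an effect below 0, where 49.4% of all probe sets did. Over the 3 breeds, 29 of the 38 members had a mean hypoxia effect below 0, against 48.9% of all tested probe sets. With single arrays left out this count was 23 to 30. The members' median effect was -0.05, against 0.01 over all tested probe sets, and the effects ran between -0.34 and 0.36. Leaving out single arrays gave medians of -0.11 to -0.05, and the median moved by over 1.5 times without replicate 2 of Tibetan normoxia, of Shouguang normoxia, of DRW hypoxia or of DRW normoxia, or without replicate 1 of Shouguang hypoxia. The value of -0.11 was that without DRW normoxia replicate 2. No member passed an adjusted p of 0.05 in limma, and the lowest adjusted p was 0.257, where 0.0564% of probe sets passed. Without adjustment, 5 members had a p under 0.05, ORC4, MCM2, CDC45 and RFC1 below 0 and POLD3 above 0, where 8.36% of all probe sets did. The 95% intervals of 36 members lay within a 1.5-fold difference either way and those of all 38 within a 2-fold difference.

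**Figure D1:**
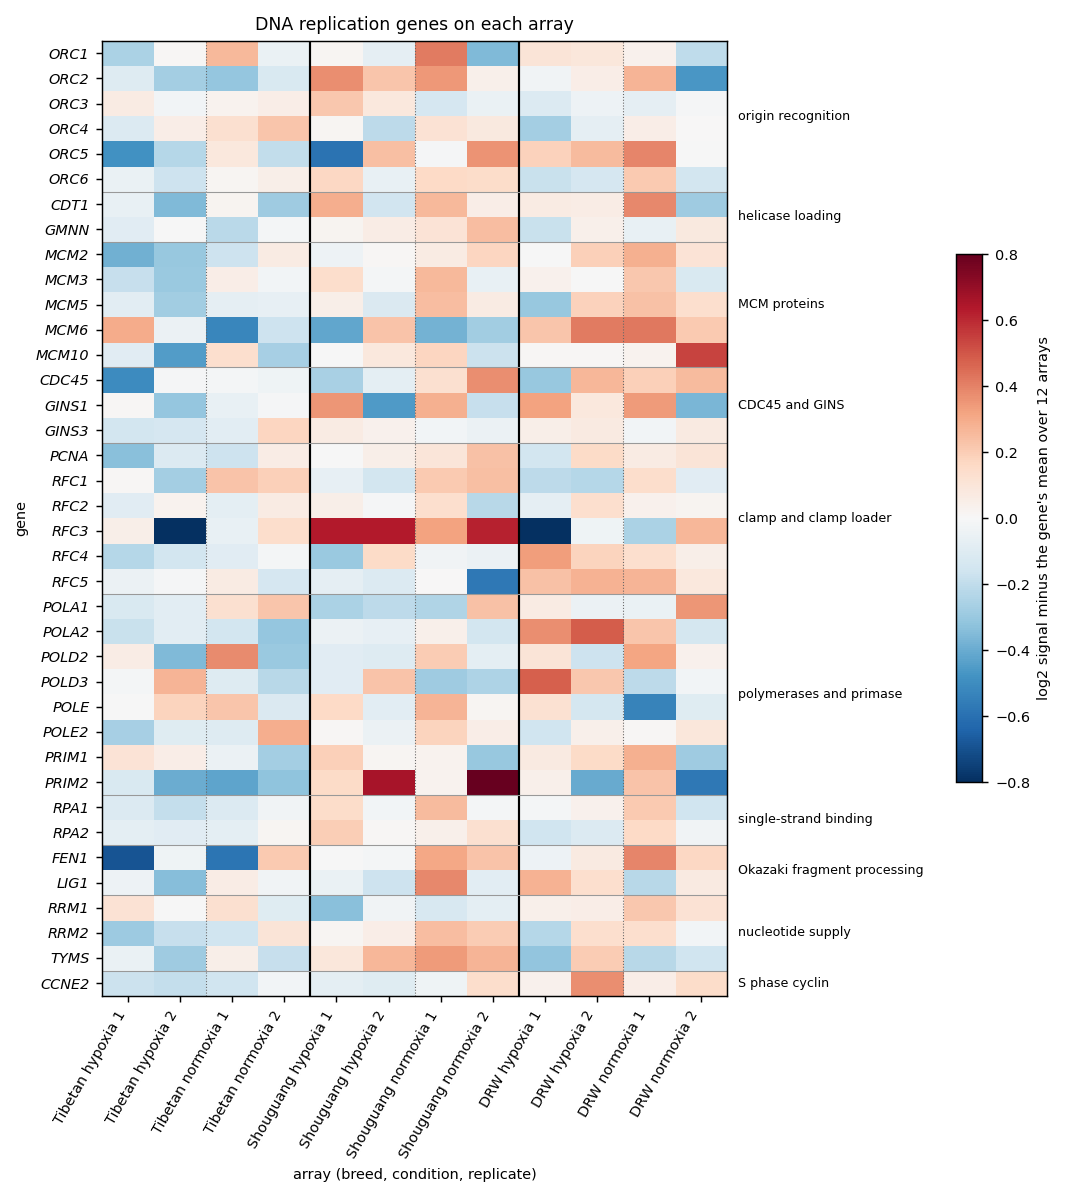
Each of the 38 genes (rows, grouped by role) on each of the 12 arrays (columns, 4 for each breed with hypoxia left of normoxia), coloured by its log2 signal minus its own mean over the 12 arrays; the colour scale ends at 0.8 on both sides, which RFC3 and PRIM2 pass. The Tibetan hypoxia columns are mostly blue: the median deviation of the members was -0.09 and -0.14 there, against -0.06 and -0.02 in Tibetan normoxia. It was 0.01 and -0.02 in Shouguang hypoxia and 0.02 and 0.07 in DRW hypoxia. In normoxia it was 0.13 and 0.05 on the Shouguang arrays and 0.15 and 0.01 on the DRW arrays. Both the highest and the lowest DRW array were thus normoxia arrays.

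The sign of the effect was shared by all 3 breeds for 19 of the 38 members. It was below 0 in all 3 breeds for 14 members, against 15.7% of all probe sets, and above 0 in all 3 for 5 members, against 16.4%. The other 19 members were mixed. The 14 were ORC4, ORC6, MCM2, MCM3, MCM5, CDC45, PCNA, RFC1, POLA1, POLD2, POLE2, RPA1, FEN1 and RRM2, and the 5 were ORC2, MCM6, RFC5, POLD3 and PRIM1. In 2 members, RFC1 and ORC4, each hypoxia array read below both normoxia arrays of its breed, which held for 1.27% of all probe sets. In 1 member, POLD3, each hypoxia array read above them, against 1.21%. Within a single breed, 2 hypoxia arrays often lay apart from 2 normoxia arrays. In Tibetan hearts they lay below them for 3442 of 23063 probe sets (14 of 38 members) and above them for 4097 (3 members). Conditions described below as apart in 1 breed are therefore a description of the arrays, not a test.

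**Figure D2:**
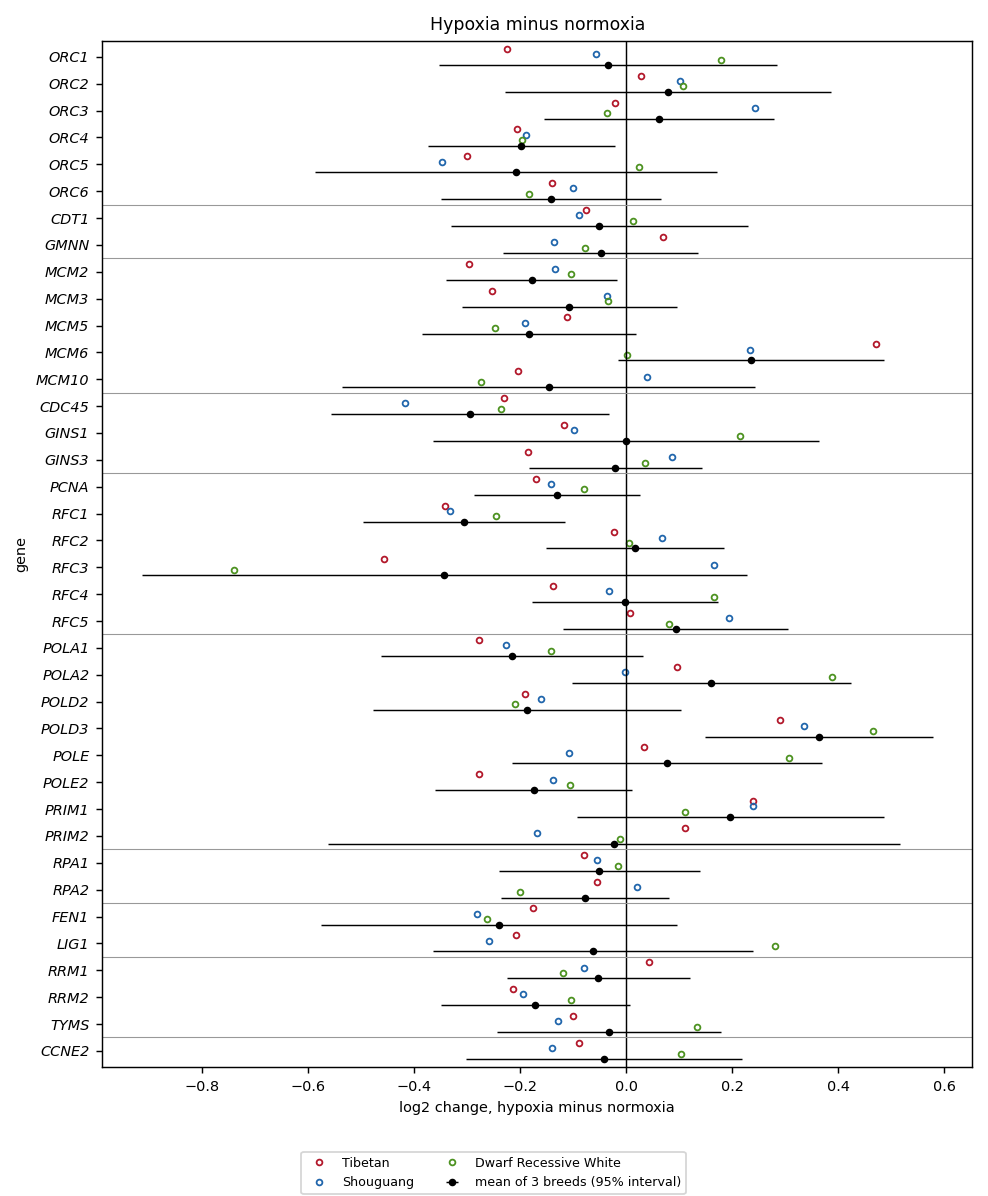
The hypoxia effect of each gene, as log2 signal in hypoxia minus normoxia, in Tibetan (red), Shouguang (blue) and DRW hearts (green, open circles), with the mean of the 3 breeds and its 95% interval in black. The intervals of POLD3 (above 0) and of RFC1, ORC4, MCM2 and CDC45 (below 0) leave out 0 before adjustment over all probe sets.

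Among the 13 measured licensing genes, 10 had a mean effect below 0 and 3 above, with a median of -0.11 and none past the test. ORC4, a subunit of the origin recognition complex, read 10.34 and 10.51 in Tibetan hypoxia against 10.59 and 10.68 in Tibetan normoxia, 10.47 and 10.25 in Shouguang hypoxia against 10.57 and 10.53 in Shouguang normoxia, and 10.18 and 10.39 in DRW hypoxia against 10.51 and 10.46 in DRW normoxia. The conditions did not overlap within any breed, and the effects were close to each other: -0.21 in Tibetan, -0.19 in Shouguang and -0.20 in DRW hearts. The mean was -0.20 ± 0.08 (SE, adjusted p = 0.534). The other origin recognition subunits had mean effects between -0.21 for ORC5 and 0.08 for ORC2. ORC5 was the least even of them: in Shouguang hearts it read 7.45 and 8.28 in hypoxia against 8.03 and 8.40 in normoxia, so that its effect of -0.35 ± 0.30 there became 0.07 without hypoxia replicate 1. In Tibetan hearts ORC5 read 7.56 and 7.81 in hypoxia against 8.13 and 7.85 in normoxia, and in DRW hearts 8.23 and 8.29 in hypoxia against 8.44 and 8.04 in normoxia.

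CDT1, which brings the helicase to the origin, read 10.14 to 10.78 over the 6 hypoxia arrays (median 10.49) and 10.21 to 10.88 over the 6 normoxia arrays (median 10.53). By breed it read 10.43 and 10.14 in Tibetan hypoxia against 10.51 and 10.21 in Tibetan normoxia, 10.78 and 10.34 in Shouguang hypoxia against 10.75 and 10.55 in Shouguang normoxia, and 10.56 and 10.55 in DRW hypoxia against 10.88 and 10.21 in DRW normoxia. The conditions overlapped in every breed, and the mean effect of -0.05 ± 0.13 lay well inside its error. It was 0.06 without DRW normoxia replicate 1. GMNN, which encodes geminin, the inhibitor of CDT1, had a mean effect of -0.05 ± 0.08.

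The MCM genes split. MCM2, a subunit of the helicase ring, read 11.00 and 11.08 in Tibetan hypoxia against 11.21 and 11.45 in Tibetan normoxia, 11.34 and 11.39 in Shouguang hypoxia against 11.45 and 11.56 in Shouguang normoxia, and 11.38 and 11.57 in DRW hypoxia against 11.66 and 11.49 in DRW normoxia. Tibetan and Shouguang hypoxia arrays lay below those of normoxia, and DRW arrays overlapped. Its mean effect was -0.18 ± 0.07 (adjusted p = 0.543), with -0.30 ± 0.13 in Tibetan hearts; MCM2 was singled out after its values were seen. MCM3 and MCM5, of the same ring, had mean effects of -0.11 ± 0.09 and -0.18 ± 0.09, and MCM10, which helps to activate the ring, -0.15 ± 0.18.

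MCM6 was the exception among the ring genes, with the largest effect above 0 of any member in Tibetan hearts. It read 12.28 and 11.93 in Tibetan hypoxia against 11.46 and 11.81 in Tibetan normoxia, 11.56 and 12.21 in Shouguang hypoxia against 11.60 and 11.70 in Shouguang normoxia, and 12.20 and 12.39 in DRW hypoxia against 12.40 and 12.19 in DRW normoxia. The conditions were apart only in Tibetan hearts. The effect was 0.47 ± 0.20 in Tibetan, 0.23 ± 0.20 in Shouguang and 0.00 ± 0.20 in DRW hearts, with a mean of 0.24 ± 0.11 (adjusted p = 0.628). The probe sets of MCM6 disagreed, because the other tested ones had Tibetan effects of -0.03 and 0.34 and mean effects of -0.12 and 0.11.

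CDC45, which completes the active helicase, had the lowest effect of any member in Shouguang hearts. It read 9.56 and 10.06 in Tibetan hypoxia against 10.05 and 10.03 in Tibetan normoxia, 9.81 and 9.99 in Shouguang hypoxia against 10.20 and 10.44 in Shouguang normoxia, and 9.77 and 10.33 in DRW hypoxia against 10.25 and 10.32 in DRW normoxia. The conditions were apart in Shouguang hearts, and in each of the other 2 breeds 1 hypoxia array was low and the other was level with normoxia. The mean effect was -0.29 ± 0.12 (adjusted p = 0.534), with -0.42 ± 0.21 in Shouguang hearts. Its partners in the GINS complex stood near 0. GINS1 read 9.08 to 9.89 in hypoxia (median 9.58) against 9.16 to 9.87 in normoxia (median 9.49), with a mean effect of 0.00 ± 0.17, whose sign turned with an offset before the log. GINS3 read 10.43 to 10.65 in hypoxia (median 10.62) against 10.50 to 10.75 in normoxia (median 10.56), with a mean effect of -0.02 ± 0.07.

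In the clamp and its loader the values differed from subunit to subunit. PCNA, the sliding clamp, read 12.61 and 12.83 in Tibetan hypoxia against 12.78 and 13.00 in Tibetan normoxia, 12.94 and 12.99 in Shouguang hypoxia against 13.04 and 13.17 in Shouguang normoxia, and 12.80 and 13.10 in DRW hypoxia against 13.01 and 13.05 in DRW normoxia. Only the Shouguang arrays were apart by condition, and the mean effect was -0.13 ± 0.07 (adjusted p = 0.668). RFC1, the large subunit of the loader, read 10.005 and 9.72 in Tibetan hypoxia against 10.22 and 10.18 in Tibetan normoxia, 9.93 and 9.84 in Shouguang hypoxia against 10.20 and 10.23 in Shouguang normoxia, and 9.78 and 9.76 in DRW hypoxia against 10.13 and 9.90 in DRW normoxia. Hypoxia was lower on every array within each breed. The effect was -0.34 ± 0.15 in Tibetan, -0.33 ± 0.15 in Shouguang and -0.25 ± 0.15 in DRW hearts, with a mean of -0.31 ± 0.09 (adjusted p = 0.295). Of the other tested probe sets of RFC1, 1 had a mean effect of -0.21 and 1 of 0.05.

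The small loader subunits RFC2, RFC4 and RFC5 had mean effects between 0.00 and 0.09. RFC4 read 11.43 to 12.06 in hypoxia (median 11.73) against 11.64 to 11.86 in normoxia (median 11.71), and its mean effect of 0.00 ± 0.08 had no stable sign, since quantile normalization turned it. RFC3 was the most scattered member, with an SD of 0.52 between arrays of a group, and stayed under the dim limit on 1 array. RFC3 read 7.44 and 6.52 in Tibetan hypoxia against 7.34 and 7.54 in Tibetan normoxia, 8.03 and 8.03 in Shouguang hypoxia against 7.71 and 8.01 in Shouguang normoxia, and 5.96 and 7.36 in DRW hypoxia against 7.14 and 7.66 in DRW normoxia. That array is DRW hypoxia replicate 1, at 5.96 against a limit of 6.31 on the log2 scale. The mean effect of -0.34 ± 0.26 was the lowest of the set and far from the threshold (adjusted p = 0.793), and in DRW hearts it was -0.74 ± 0.45.

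Of the 8 polymerase and primase genes, 4 had mean effects below 0 and 4 above, with a median of 0.03. POLD3, an accessory subunit of polymerase delta, had the highest mean effect of all members. It read 10.03 and 10.32 in Tibetan hypoxia against 9.94 and 9.83 in Tibetan normoxia, 9.95 and 10.27 in Shouguang hypoxia against 9.76 and 9.80 in Shouguang normoxia, and 10.52 and 10.26 in DRW hypoxia against 9.83 and 10.02 in DRW normoxia. Hypoxia was higher on every array within each breed. The effect was 0.29 ± 0.17 in Tibetan, 0.34 ± 0.17 in Shouguang and 0.47 ± 0.17 in DRW hearts, and the mean of 0.36 ± 0.10, a 1.29-fold difference, had an adjusted p of 0.257. All 4 other tested probe sets of POLD3 had mean effects above 0, between 0.10 and 0.13, but 3 of the 4 were below 0 in Tibetan hearts.

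POLE2, a subunit of polymerase epsilon, read 10.74 to 11.05 in hypoxia (median 10.93) against 10.91 to 11.30 in normoxia (median 11.08). By breed POLE2 read 10.74 and 10.91 in Tibetan hypoxia against 10.91 and 11.30 in Tibetan normoxia, 11.02 and 10.96 in Shouguang hypoxia against 11.19 and 11.06 in Shouguang normoxia, and 10.85 and 11.05 in DRW hypoxia against 11.02 and 11.10 in DRW normoxia. Only the Shouguang arrays were apart, and the mean effect was -0.17 ± 0.09 (adjusted p = 0.630). The catalytic subunit of polymerase alpha, POLA1, had a mean effect of -0.22 ± 0.11, while its partner POLA2 stood at 0.16 ± 0.12. The primase subunits were PRIM1 at 0.20 ± 0.13 and PRIM2 at -0.02 ± 0.25.

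Genes that coat single-stranded DNA or process Okazaki fragments had mean effects below 0 without passing the test. RPA2, of the complex that coats single-stranded DNA, read 10.76 to 11.12 in hypoxia (median 10.84) against 10.85 to 11.08 in normoxia (median 10.95), with a mean effect of -0.08 ± 0.07. RPA1 had a mean effect of -0.05 ± 0.09. FEN1, the nuclease that trims Okazaki fragments, read 8.36 and 9.01 in Tibetan hypoxia against 8.46 and 9.26 in Tibetan normoxia, 9.04 and 9.03 in Shouguang hypoxia against 9.36 and 9.28 in Shouguang normoxia, and 9.01 and 9.12 in DRW hypoxia against 9.44 and 9.21 in DRW normoxia. The conditions were apart in Shouguang and DRW hearts, and the mean effect was -0.24 ± 0.15 (adjusted p = 0.740). LIG1, the ligase that seals the fragments, stood at -0.06 ± 0.14.

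The 3 nucleotide genes all had mean effects below 0, with a median of -0.05. RRM2, the small subunit of ribonucleotide reductase, read 11.10 and 11.21 in Tibetan hypoxia against 11.24 and 11.50 in Tibetan normoxia, 11.41 and 11.45 in Shouguang hypoxia against 11.64 and 11.60 in Shouguang normoxia, and 11.17 and 11.53 in DRW hypoxia against 11.53 and 11.37 in DRW normoxia. Its conditions were apart in Tibetan and Shouguang hearts and overlapped in DRW hearts, with a mean of -0.17 ± 0.08 (adjusted p = 0.619). RRM1, the large subunit, stood at -0.05 ± 0.08, and TYMS, which makes thymidylate, at -0.03 ± 0.10. CCNE2, a cyclin of the entry into S phase, read 8.19 to 8.76 in hypoxia (median 8.30) against 8.22 to 8.53 in normoxia (median 8.40), a mean effect of -0.04 ± 0.12.

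**Figure D3:**
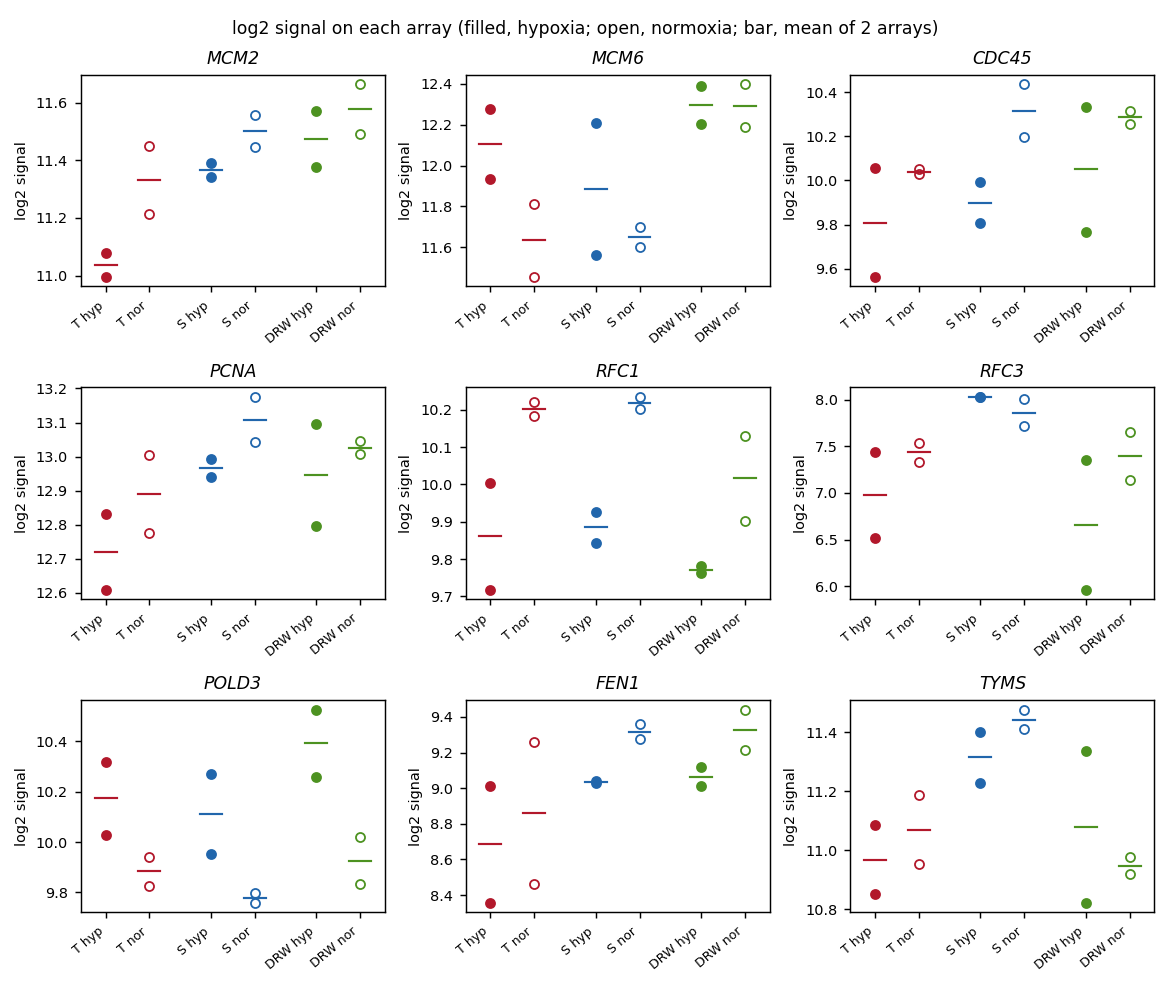
Log2 signal of 9 members on each array, with hypoxia (filled) left of normoxia (open) for Tibetan (T), Shouguang (S) and DRW hearts, and a bar at the mean of the 2 arrays. POLD3 is higher and RFC1 lower in hypoxia on every array within each breed, while RFC3 spreads between 5.96 and 8.03.

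Breed by breed, no member passed an adjusted p of 0.05. In Tibetan hearts 28 of 38 members had a hypoxia effect below 0 (47.3% of all probe sets), with a median of -0.13. None passed adjustment (0% of probe sets), and at an unadjusted p under 0.05 there were 3 (MCM6 above 0, MCM2 and RFC1 below 0), where 4.45% of probe sets reached it. In Shouguang hearts 27 members were below 0 (51.2% of probe sets), with a median of -0.10, none past adjustment (0%) and 1, RFC1, at an unadjusted p under 0.05 (5.52%). In DRW hearts 21 members were below 0 (49.4%), with a median of -0.03, none past adjustment (0.00434%) and 1, POLD3, at an unadjusted p under 0.05 (6.33%). These medians rested on single arrays. The Tibetan median was -0.05 without hypoxia replicate 2 and the Shouguang median was -0.02 without normoxia replicate 1. The DRW median was 0.04 without hypoxia replicate 1, -0.08 without hypoxia replicate 2, 0.00 without normoxia replicate 1 and -0.16 without normoxia replicate 2, so its sign was not stable. Without DRW normoxia replicate 1 the members below 0 were 19 in DRW hearts and 23 for the mean of the 3 breeds.

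The difference of the hypoxia effect between breeds was tested as an interaction. No member passed adjustment or an unadjusted p of 0.05 in limma for Tibetan minus Shouguang (0% and 2.88% of probe sets), Tibetan minus DRW (0% and 4%) or Shouguang minus DRW (0% and 4.56%). With a median SE of 0.24, these differences were the least precise: for Tibetan minus DRW, 9 of 38 members had a 95% interval within 1.5-fold and 30 within 2-fold. MCM6 had an effect in Tibetan hearts that differed from that in DRW hearts by 0.47 ± 0.28. For RFC3 the Shouguang effect differed from the DRW effect by 0.90 ± 0.64.

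Between breeds, averaged over both conditions, Tibetan hearts had the lowest mean signal for most members on the probe sets used. Of 19 other tested probe sets of members, 14 had the same sign for Tibetan minus Shouguang but only 7 for Tibetan minus DRW. The Tibetan mean was lower than that of both other breeds for 26 of the 38 members, against 33% of all probe sets. It was higher than both for 2 members, against 8055 of 23063 probe sets. With the W-linked level of each array as a covariate the count of members lowest in Tibetan hearts was 17, and without DRW normoxia replicate 1 it was 22. The median deviation of the members on an array was -0.14 to -0.02 in Tibetan, -0.02 to 0.13 in Shouguang and 0.01 to 0.15 in DRW hearts, so by this median the Tibetan arrays were the 4 lowest, by a margin of under 0.01 on the log2 scale. The summed signal of the members did overlap: it was 55959 on Tibetan normoxia replicate 2, above 55256 on Shouguang hypoxia replicate 1 and 55506 on DRW hypoxia replicate 1. The Tibetan arrays enter both Tibetan comparisons that follow. The eggs were full siblings per the design text, so a difference between breeds cannot be told apart from one between families. No breed difference of a member passed the test with all arrays kept and no replicate block.

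Against Shouguang, 31 of 38 members were lower in Tibetan hearts (48.1% of all probe sets below 0), with a median difference of -0.12. Adjustment left none, where 0.551% of probe sets passed, and the lowest adjusted p was 0.213. At an unadjusted p under 0.05 there were 7 members, all below 0 (12.2% of probe sets). All 4 Tibetan arrays lay below all 4 Shouguang arrays for 6 members, ORC2, GMNN, RFC3, PRIM2, RPA1 and TYMS (3.43% of probe sets), and above them for none (3.79%). PRIM2, the large primase subunit, had the difference furthest below 0. PRIM2 read 7.13, 6.85, 6.83 and 6.93 in Tibetan hearts, against 7.40, 7.91, 7.28 and 8.38 in Shouguang hearts and 7.29, 6.85, 7.48 and 6.68 in DRW hearts, in each case with the hypoxia arrays first. The difference from Shouguang was -0.81 ± 0.30 (adjusted p = 0.289).

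ORC2, of the origin recognition complex, read 8.60, 8.43, 8.39 and 8.58 in Tibetan hearts, against 9.07, 8.93, 9.05 and 8.75 in Shouguang hearts and 8.68, 8.76, 8.98 and 8.24 in DRW hearts. Tibetan and Shouguang arrays did not overlap, DRW arrays spread over both, and the Tibetan minus Shouguang difference was -0.45 ± 0.17 (adjusted p = 0.301). TYMS read 11.08, 10.85, 11.19 and 10.95 in Tibetan hearts, against 11.23, 11.40, 11.48 and 11.41 in Shouguang hearts and 10.82, 11.34, 10.92 and 10.98 in DRW hearts. Here Shouguang was the high breed: Tibetan minus Shouguang was -0.36 ± 0.12 (adjusted p = 0.213), Tibetan minus DRW was 0.01 ± 0.12 and Shouguang minus DRW was 0.37 ± 0.12 (adjusted p = 0.199). TYMS was named after its values were seen.

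Against DRW, 31 members were lower in Tibetan hearts (50% of all probe sets below 0), with a median difference of -0.13, or -0.04 with the W-linked covariate and -0.06 without DRW normoxia replicate 1. None passed adjustment (0.759% of probe sets), with a lowest adjusted p of 0.119. At an unadjusted p under 0.05 there were 5, MCM2, MCM6, RFC4, POLA2 and FEN1, all lower in Tibetan hearts (12.3% of probe sets). The Tibetan arrays lay below all 4 DRW arrays for RFC4, RFC5 and CCNE2 (3.67% of probe sets) and above them for no member (4.03%). All 5 MCM genes had a Tibetan minus DRW difference below 0 on the probe sets used, with a median of -0.31, but the other tested probe sets of these genes lay above 0, at 0.66 and 0.39 for MCM6 and 1.198 for MCM10. MCM2 averaged 11.18 ± 0.20 in Tibetan, 11.43 ± 0.09 in Shouguang and 11.53 ± 0.12 in DRW hearts (SD, n = 4 each), and its Tibetan minus DRW difference was -0.34 ± 0.09 (adjusted p = 0.119). With a replicate block in the limma model that difference passed (adjusted p = 0.0420), though replicate numbers were otherwise not taken as pairs.

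Shouguang and DRW hearts showed no common direction over the members. The difference was below 0 for 21 members and above 0 for 17 (50.5% of all probe sets below 0), with a median of -0.01, which was -0.04 to 0.05 with single arrays left out. None passed adjustment (1.33% of probe sets), and 7 reached an unadjusted p under 0.05, 3 higher and 4 lower in Shouguang hearts (11.7% of probe sets). All Shouguang arrays lay above all DRW arrays for 1 member, RFC3 (3.68%), and below them for RFC5 and RRM1 (3.54%). RFC3 averaged 7.94 ± 0.15 in Shouguang and 7.03 ± 0.74 in DRW hearts (SD, n = 4 each), a difference of 0.92 ± 0.32 (adjusted p = 0.242), and 7.21 ± 0.47 in Tibetan hearts. RFC5, named after its values were seen, averaged 10.85 ± 0.26 in Shouguang and 11.26 ± 0.09 in DRW hearts, a difference of -0.40 ± 0.12 (adjusted p = 0.149). Without Shouguang normoxia replicate 1, where RFC5 read 11.04, the difference was -0.55. The Shouguang normoxia array that stayed read 10.47, below the Shouguang hypoxia arrays at 10.97 and 10.93, so that difference leans on a lone array.

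MCM6 had the smallest adjusted p of this comparison. It averaged 11.77 ± 0.30 in Shouguang and 12.29 ± 0.12 in DRW hearts, with 11.87 ± 0.34 in Tibetan hearts (SD, n = 4 each). Shouguang minus DRW was -0.53 ± 0.14 (adjusted p = 0.103) and Tibetan minus DRW was -0.43 ± 0.14 (adjusted p = 0.231). Without Shouguang hypoxia replicate 2 the Shouguang minus DRW difference was -0.69, with a lone Shouguang hypoxia array left. The other tested probe sets of MCM6, above 0 for Tibetan minus DRW, had Shouguang minus DRW differences of -0.05 and 0.13.

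**Figure D4:**
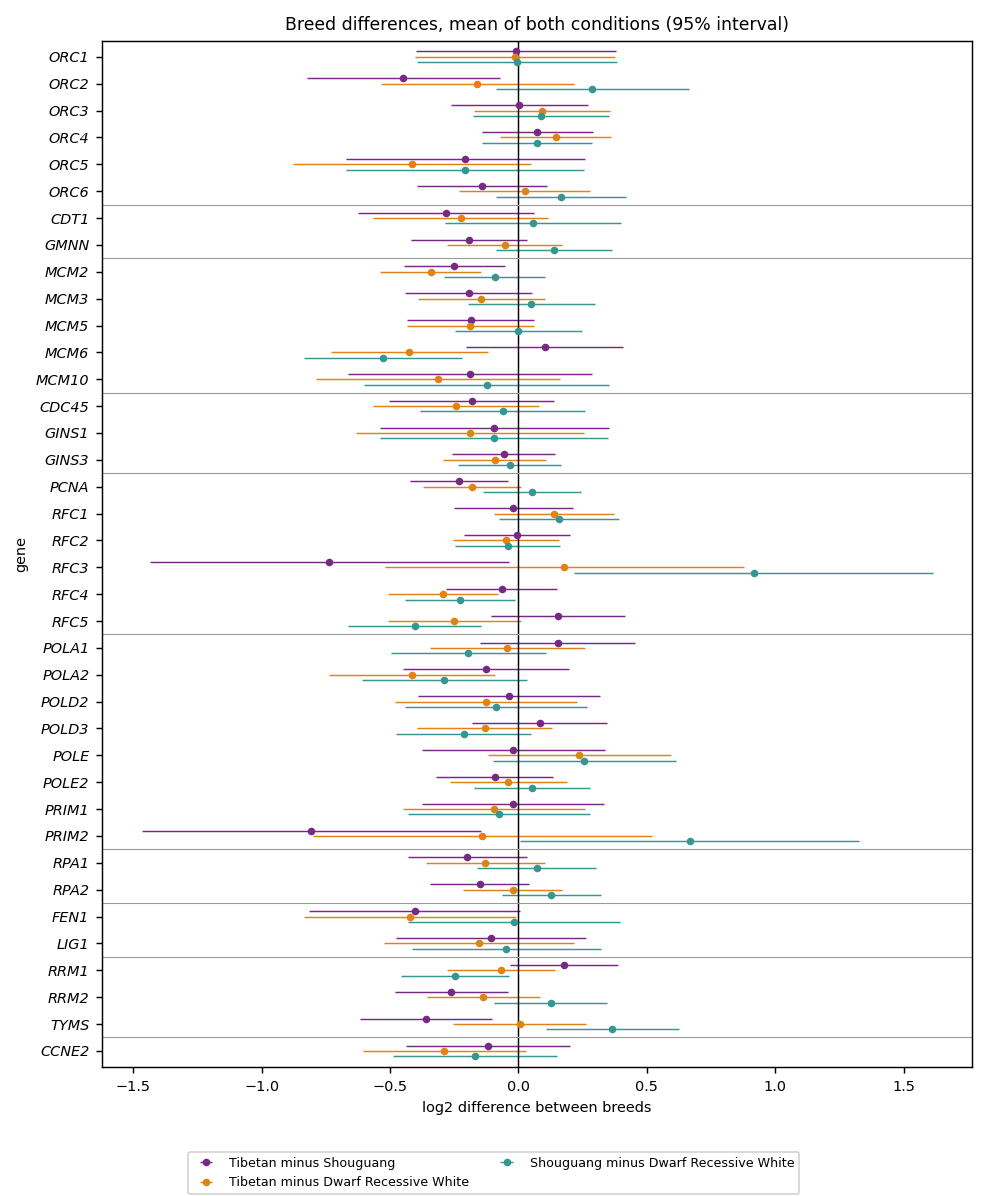
Differences between breeds for each gene, in log2 signal averaged over hypoxia and normoxia, with 95% intervals: Tibetan minus Shouguang (purple), Tibetan minus DRW (orange) and Shouguang minus DRW (teal). Most purple and orange points lie left of 0 (31 of 38 each), while the teal points lie on both sides, and RFC3 and PRIM2 have the widest intervals.

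Genes with 2 or more tested probe sets gave a further reading of the members. Of 19 other tested probe sets, 9 had the sign of the probe set used for the Tibetan hypoxia effect, 9 for the Shouguang effect, 13 for the DRW effect and 14 for the mean of the 3 breeds. For Tibetan minus Shouguang 14 did. For Tibetan minus DRW 7 of the 19 did, and for Shouguang minus DRW 10. None of them passed the test in any comparison.

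Other replication and nucleotide supply genes, from lists made by function, leaned the same way under hypoxia. Regulators of the G1 to S transition did so less, and none of these lists held a call. Of all tested probe sets 48.9% had a mean hypoxia effect below 0. Of 30 other replication genes, such as chromatin assembly and checkpoint genes of the fork, 26 had a mean hypoxia effect below 0, with a median of -0.18. The smallest p-values were those of MCM8 at -0.40 ± 0.09 (limma adjusted p = 0.165) and CHAF1B at -0.32 ± 0.09 (adjusted p = 0.257). Of 17 other nucleotide supply genes 14 were below 0, with a median of -0.09, and of 26 regulators of the G1 to S transition 16 were, with a median of -0.02. Among the nucleotide supply genes the smallest p-values were those of CMPK1 at -0.19 ± 0.07 (limma adjusted p = 0.458) and ATIC, above 0, at 0.29 ± 0.11 (adjusted p = 0.465). Among the regulators MYC, a transcription factor that drives growth, stood at 0.47 ± 0.10 (adjusted p = 0.1501), and CCNA2, a cyclin of S phase and mitosis, at -0.29 ± 0.09 (adjusted p = 0.313).

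Some lists of cell type markers also had medians away from 0 in these contrasts, and others did not. Of all tested probe sets, 48.9% were below 0 for the mean hypoxia effect, 50% for Tibetan minus DRW and 48.1% for Tibetan minus Shouguang. Those that passed were 0.0564%, 0.759% and 0.551% in the same order. For the mean hypoxia effect, 17 of 20 cardiomyocyte markers were below 0 with a median of -0.07, 6 of 8 smooth muscle and pericyte markers were below 0 with a median of -0.19, and 13 of 15 red blood cell markers were above 0 with a median of 0.15. Summed signals over the arrays were 479944 to 552233 in hypoxia and 503626 to 556438 in normoxia for cardiomyocyte markers, and 110967 to 121576 in hypoxia and 106973 to 123525 in normoxia for red blood cell markers, against 51441 to 61279 in hypoxia and 52993 to 61892 in normoxia for the replication genes. Smooth muscle and pericyte markers summed to 32205 to 41475 in hypoxia and 39050 to 49951 in normoxia. Median hypoxia effects were 0.01 over 8 leukocyte and macrophage markers, 0.03 over 12 fibroblast and epicardium markers and 0.09 over 12 endothelium and endocardium markers. Liver and yolk sac plasma protein genes had 8 of 9 below 0, with a median of -1.46, and 2 that passed; 2 of the 12 with a probe set were under the dim limit on all arrays. For Tibetan minus DRW, 16 of 20 cardiomyocyte markers were above 0 with a median of 0.11, while 12 of 15 red blood cell markers were below 0 with a median of -0.22 and 7 of 8 smooth muscle and pericyte markers with a median of -0.23. In the same comparison the liver and yolk sac plasma protein genes were above 0 in 9 of 9, with a median of 0.67, and 9 of 12 fibroblast and epicardium markers were below 0, with a median of -0.11 and 1 that passed as lower. Of the red blood cell markers 1 passed as lower, and so did 1 of 8 leukocyte and macrophage markers. For Tibetan minus Shouguang, 7 of 8 smooth muscle and pericyte markers were below 0 with a median of -0.25. For the other lists the median deviation on an array is given, as a median over a breed's 4 arrays, Tibetan against Shouguang. Cardiomyocyte (0.065 against 0.058), red blood cell (-0.035 against -0.068), leukocyte and macrophage (-0.016 against -0.111) and plasma protein lists (0.627 against 0.445) were higher in Tibetan hearts. Fibroblast and epicardium (-0.045 against 0.014) and endothelium and endocardium lists (0.028 against 0.096) were lower. The part of these cell types in the replication gene values was not tested.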

How the data were processed

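Total RNA was labelled as biotinylated cRNA and hybridised to Affymetrix arrays, per the labels' protocols. The authors deposited a linear signal intensity for each probe set, computed with GCOS (version not given in the sources used here), per the submitters' processing notes. In the values, each array's mean, with 2% trimmed at each end, was 500.1. Of 38535 probe sets, 96 controls were left out; 27178 had 1 gene symbol, 177 several and 11180 none. Signals were put on the log2 scale with no further normalization, and probe sets under the 40th percentile of the mean log2 signal were left out, which kept 23063.

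One limma 3.58.1 model in R 4.3.3 held all 12 arrays, 6 group means and an intensity trend, whose degrees of freedom were 6 (residual) and 6.16 (prior). Each of 10 contrasts was tested two-sided, with Benjamini-Hochberg adjustment over all 23063 probe sets and a threshold of 0.05. Errors of effects are limma standard errors, and the number of arrays limits the precision: the members' median SE was 0.17 within a breed, 0.10 for the mean of 3 breeds, 0.12 between breeds and 0.24 for interactions. The procedure was tested on simulated data.

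Every array's values are given for the 4 members with the largest and the 2 with the smallest mean hypoxia effect, the 4 with the largest breed difference, the 2 with the largest effect in each breed and the highest-signal member of each role; members given by range have theirs in the heat map. The members and lists were chosen with earlier results of these data known. Deviations of same-numbered replicates correlated at 0.0586 to 0.199 between groups. All were above 0 but not all over 0.1, and the numbers were not taken as pairs outside the replicate block. In all 6 groups CDT1, MCM3 and POLD2 read higher in replicate 1, and PCNA and GMNN in replicate 2. Standard errors without the block, and statements that conditions overlap, count such offsets as scatter. The share of all probe sets with such an offset is not given here. Alternatives were other filters, normalizations, offset, trend, weights, a replicate block, only the arrays compared, all probe sets of a gene, a threshold of 0.1, the W-linked level as a covariate, and leaving out each array. The weights were equal for the 2 arrays of each group, so they could not set a deviant array apart from its partner. Counts of members below 0, and of those lowest in Tibetan hearts, under alternatives were added after the data were seen.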

Additional observations from a re-analysis of the deposited data

How the results depend on the processing

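Each count of members past the threshold was 0 under every alternative but these. With a replicate block the Tibetan minus DRW count was 1, MCM2 (-0.34 ± 0.08, adjusted p = 0.0420). Leaving out single arrays changed the call of MCM6 and of RFC5 for Shouguang minus DRW. In those fits, whose differences are given above, a Shouguang group kept a lone array. The block changed no other call of a member, while the probe sets called over the whole table went to 81 for the mean hypoxia effect (13 without the block) and to 605, 579 and 711 for the 3 breed differences (127, 175 and 306 without it). With all arrays kept, under the other alternatives at this threshold, counts over the whole table were 0 to 26 for the mean hypoxia effect, 18 to 206 for Tibetan minus Shouguang, 15 to 234 for Tibetan minus DRW and 100 to 346 for Shouguang minus DRW. The lowest were with no intensity trend, or for Tibetan minus DRW with the W-linked covariate. Where an array is left out, its lone partner is assumed to vary like the other groups.

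The members' median moved by more than 0.0525, its spread between replicates, as follows. Median centring gave -0.18 for the Tibetan effect, -0.18 for Tibetan minus Shouguang, -0.19 for Tibetan minus DRW and -0.12 for the interaction of Tibetan and Shouguang. Centring shifts all probe sets of an array alike. In the same order, medians over all tested probe sets went to -0.039, -0.049, -0.055 and -0.080. On the deposited scale they were 0.016, 0.012, 0.0002 and 0.013. The W-linked covariate gave 0.0340 for the DRW effect, -0.0388 for Tibetan minus DRW, and 0.0563, -0.145 and -0.192 for the interactions Tibetan minus Shouguang, Tibetan minus DRW and Shouguang minus DRW. Leaving out each array gave -0.127 to -0.0533 for the Tibetan, -0.113 to -0.0236 for the Shouguang, -0.156 to 0.0400 for the DRW and -0.111 to -0.0490 for the mean effect. It gave -0.180 to -0.0600 for Tibetan minus DRW, -0.0395 to 0.0456 for Shouguang minus DRW, and -0.0627 to 0.0319, -0.139 to -0.0178 and -0.124 to 0.0484 for the interactions in the order above.

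Signs turned for members near 0, and also for some of the largest effects within a breed. With all arrays the effect of RFC3 in Tibetan hearts was -0.457 and that of ORC5 in Shouguang hearts -0.347. Quantile normalization gave 0.0125 for the mean effect of RFC4, where the deposited scale gave -0.00169. An offset before the log gave 0.000382 and the W-linked covariate 0.0390 for that of GINS1. Leaving out each array gave mean effects of -0.0769 to 0.0735 for RFC4, -0.135 to 0.135 for GINS1, -0.0635 to 0.0218 for GINS3, -0.161 to 0.0605 for CDT1 and -0.0988 to 0.0147 for CCNE2, and effects of -0.917 to 0.00307 for RFC3 in Tibetan hearts and -0.763 to 0.0682 for ORC5 in Shouguang hearts. The cause of these shifts was not tested.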

Other observations

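Between breeds, 4 replication genes outside the member list passed the test, and in each the DRW hearts had the highest mean. MCM9, a relative of the helicase genes known for DNA repair, read 7.90, 8.57, 8.42 and 8.55 in Tibetan hearts and 8.36, 8.23, 8.30 and 8.78 in Shouguang hearts, against 8.99, 9.43, 9.59 and 9.40 in DRW hearts (hypoxia arrays first). Neither breed overlapped DRW. Tibetan minus DRW was -0.99 ± 0.18 (limma adjusted p = 0.0310) and Shouguang minus DRW was -0.94 ± 0.18 (adjusted p = 0.0302). RNASEH2B, a subunit of the ribonuclease that removes RNA from DNA, read 10.52, 10.86, 10.75 and 11.27 in Tibetan hearts and 10.71, 10.79, 10.87 and 11.03 in Shouguang hearts, against 11.33, 11.49, 11.72 and 11.53 in DRW hearts, with differences of -0.67 ± 0.12 in both comparisons (adjusted p = 0.0317 and 0.0227).

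CHAF1B, a subunit of chromatin assembly factor 1, read 10.10, 10.32, 10.32 and 10.65 in Tibetan hearts, against 10.70, 10.76, 11.07 and 11.03 in DRW hearts, a difference of -0.54 ± 0.11 (adjusted p = 0.0415). MCM8, the partner of MCM9 in DNA repair, read 9.01, 8.99, 9.56 and 9.38 in Shouguang hearts, against 9.61, 9.60, 9.87 and 9.89 in DRW hearts, a difference of -0.51 ± 0.11 (adjusted p = 0.0471). These 6 results were read against 0.759% of probe sets that passed for Tibetan minus DRW and 1.33% for Shouguang minus DRW. None of the 6 passed once the W-linked level entered as a covariate (adjusted p 0.1004 to 0.648), without DRW normoxia replicate 1 (0.0931 to 0.141), without DRW hypoxia replicate 2 (0.0844 to 0.133) or with no intensity trend (0.0945 to 0.1503), and 1 of the 6 passed without DRW normoxia replicate 2. Leaving out any other single array kept 2 to 4 of the 6, no filter kept 2, median centring kept 2, only the arrays compared kept 3 and quantile normalization kept 5. With the W-linked covariate the 6 differences stayed below 0, between -0.82 and -0.50. Over the whole table, 15 probe sets then passed for Tibetan minus DRW and 148 for Shouguang minus DRW, against 175 and 306 without it. The cause of these losses was not tested.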
